A study of Mus musculus with 4 samples.

Results

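The 10 genes described here encode transcription factors of the early response: Fos, Fosb and Fosl2 of the Fos family, Jun, Junb and Jund of the Jun family, Egr1, Atf3, Nr4a1 and Maff. They were taken by gene symbol, as a set put together with earlier results of these data known, and all 10 were found among the 55401 genes of the count files and passed the filter on low counts. Their RNA was measured in 4 bulk poly(A) libraries of the semimembranosus, a hamstring muscle, of C57BL/6 mice aged 8 weeks. In all of the mice the left external iliac vein had been tied over a 30-gauge needle to narrow it (iliac vein stenosis, IVS). The IVS_diosmin group (2 libraries) was given diosmin, a flavonoid drug taken for vein disease, by stomach tube at 40 mg per kg per day, and the IVS group (2 libraries) was given saline in the same way. Neither group was free of stenosis, so no level can be set against an unoperated muscle.

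Fos and Jun proteins pair through leucine zippers to form AP-1, which binds a short DNA element and drives genes of growth, stress and matrix turnover. The Fos, Fosb, Jun, Junb, Egr1, Atf3 and Nr4a1 genes are classic early response genes: they are switched on by growth factors, stretch, calcium or stress before any new protein is made, largely through serum response factor, CREB and the MAP kinases. Their RNAs are short-lived, and in skeletal muscle contraction and injury are known to raise them. Jund and Fosl2 are usually expressed more steadily, and Maff is a small Maf protein that pairs with other leucine zipper factors such as NRF2.

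Diosmin libraries had the lower mean for each of the 10 genes, where 49.5% of all tested genes had a log2 fold change below 0, but 1 gene, Junb, passed the test. Junb fell to 5.55 and 6.53 CPM in IVS_diosmin, against 29.6 and 13.0 CPM in IVS (CPM are gene counts scaled by TMM to a common library size), a log2 fold change of -1.82 ± 0.37 (SE, n = 2 libraries each; edgeR quasi-likelihood test, adjusted p = 0.0295). Of all 13533 genes tested, 1.78% were lower by the same rule and 1.17% higher. Both diosmin libraries lay below both IVS libraries for 6 of the 10 genes (Fos, Fosb, Junb, Jund, Egr1 and Maff), where 24.1% of all tested genes did so. The median log2 fold change of the 10 genes was -0.89, beside 0.01 over all tested genes. The Junb log2 fold change was -1.11 without IVS replicate 1 and -2.29 without IVS replicate 2. It was -1.71 without IVS_diosmin replicate 1 and -1.96 without IVS_diosmin replicate 2. Of these fits, Junb kept its call only in that without IVS replicate 2. Fewer of all tested genes passed in each of them than with all libraries. In those fits the single library of a group is taken to vary as much as the pair of the other group.

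The stretches before the starts of 4 of the genes are shown because these genes span the range of behaviour: Junb and Fos had the lowest fold changes, Nr4a1 was the most abundant and nearly level, and Atf3 was ordered differently in the libraries from Fos and the Jun genes. Each is the 250 bases before the start of the RefSeq gene (GRCm38.p6), 5′ to 3′ on the gene's strand. Capitals mark the CRE core TGACG, the element bound by CREB and ATF factors, or its reverse complement.
Junb (chr8:84978749-84978998, minus strand): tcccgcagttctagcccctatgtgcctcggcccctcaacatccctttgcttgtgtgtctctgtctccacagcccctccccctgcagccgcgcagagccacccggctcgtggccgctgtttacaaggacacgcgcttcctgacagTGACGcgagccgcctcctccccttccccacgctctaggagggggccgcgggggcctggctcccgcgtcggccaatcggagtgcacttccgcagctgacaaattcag
Fos (chr12:85473640-85473889, plus strand): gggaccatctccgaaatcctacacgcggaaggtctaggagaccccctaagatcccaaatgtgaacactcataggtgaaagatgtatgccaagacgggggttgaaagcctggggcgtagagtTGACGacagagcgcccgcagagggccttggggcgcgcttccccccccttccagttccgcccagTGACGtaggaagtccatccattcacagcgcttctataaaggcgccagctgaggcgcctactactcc
Nr4a1 (chr15:101266596-101266845, plus strand): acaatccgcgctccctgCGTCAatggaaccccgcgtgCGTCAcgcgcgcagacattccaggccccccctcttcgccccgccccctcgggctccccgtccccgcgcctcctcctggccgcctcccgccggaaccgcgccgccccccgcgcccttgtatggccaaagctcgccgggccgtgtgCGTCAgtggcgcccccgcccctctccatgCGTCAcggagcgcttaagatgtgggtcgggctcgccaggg
Atf3 (chr1:191183334-191183583, minus strand): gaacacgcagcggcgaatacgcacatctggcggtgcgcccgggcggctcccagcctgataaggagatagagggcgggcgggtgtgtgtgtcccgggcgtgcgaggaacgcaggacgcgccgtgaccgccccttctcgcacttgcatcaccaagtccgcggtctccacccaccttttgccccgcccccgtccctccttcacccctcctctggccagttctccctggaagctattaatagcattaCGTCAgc

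On either strand, the letters TGACG stood 1 time in the Junb window, 2 times in that of Fos, 4 times in that of Nr4a1 and 1 time in that of Atf3. The printed windows of Atf3 (minus strand, GENCODE gene end at 191218039) and Nr4a1 (gene start at 101254269) lie inside their GENCODE genes. They therefore do not precede the outermost GENCODE start. The Fosl2 window and the later windows of Maff also lie inside their genes. Egr1 was not among the windows used here, and the RefSeq start of Jund lies upstream of its GENCODE gene (window chr8:70697489-70697738, gene start at 70698949). Of the 11 RefSeq windows of the other 9 genes, that of Jund included and Maff with 3, 7 held the core, in Atf3, Fos, Fosb, Junb, Maff and Nr4a1, as did 17.8% of all 32851 windows of the same length. The whole CRE, TGACGTCA, in which cores on opposite strands overlap, stood in 1 window, of Maff, and in 1.55% of all windows. The AP-1 site TGANTCA stood in 0 of the 11 windows and in 6.75% of all, the CArG box of serum response factor in 0 and in 1.47%, and the Egr site GCGNGGGCG in 4 (Fosb, Fosl2, Maff and Nr4a1) and in 4.70%. These matches describe letters and not bound sites. Bases further than 250 before each start were not searched, so a count of 0 does not show that a gene lacks the site.

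Levels of different genes were compared per length, as RPKM (CPM per kilobase of merged exons). Nr4a1, a nuclear receptor without a known natural ligand, was the most abundant of the 10, at 37.8 and 53.2 RPKM in IVS_diosmin and 42.5 and 59.9 RPKM in IVS, above 96.5% of tested genes. Jun followed, at 9.24 and 22.5 RPKM in IVS_diosmin and 30.3 and 18.2 RPKM in IVS. Jund stood at 8.69 and 17.5 RPKM in IVS_diosmin and 24.4 and 17.5 RPKM in IVS, so the ranges of Jun and Jund overlapped in each group. Below them the order differed between the groups. With diosmin, Junb (2.41 and 2.84 RPKM), Fos (1.25 and 2.36), Atf3 (2.15 and 1.42) and Fosl2 (1.34 and 1.48) lay close together, and the ranges of the last 3 overlapped. In IVS, Fos (23.5 and 4.80 RPKM) overlapped the ranges of Jun and Jund and took in that of Junb (12.8 and 5.65), and Atf3 (1.27 and 4.98) spanned those of Fosl2 (1.70 and 1.39) and Maff (1.63 and 2.47). Egr1 was low, at 0.395 and 0.573 RPKM in IVS_diosmin and 1.28 and 0.870 RPKM in IVS, above 25.1% of tested genes. Fosb was the scarcest, at 0.111 and 0.100 RPKM in IVS_diosmin and 0.128 and 0.299 RPKM in IVS.

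**Figure D1:**
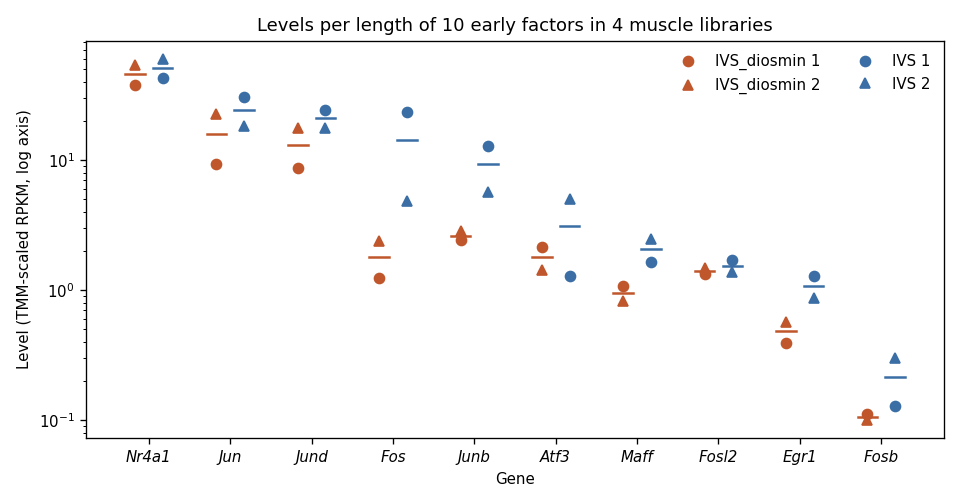
Level per length of each gene (TMM-scaled RPKM, log axis) in the 2 IVS_diosmin and 2 IVS libraries, with the bar at the group mean and the symbol giving the replicate. Nr4a1 is highest at 37.8 to 59.9 RPKM and Fosb lowest at 0.100 to 0.299 RPKM, and the gap between groups is widest for Fos and Junb.

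Fos, the founding partner of AP-1, showed the largest fold and the largest spread. It stood at 38 and 80 counts in IVS_diosmin and 968 and 139 counts in IVS, or 2.93 and 5.55 CPM against 55.3 and 11.3 CPM. The groups did not overlap, but most of the difference lay in IVS replicate 1, 4.90 times as high as replicate 2, a gap wider than that of 98.9% of tested genes between the same libraries. The log2 fold change was -2.97 ± 1.00 (SE, n = 2 each; 95% interval -5.91 to -0.04) and did not pass (edgeR adjusted p = 0.291, unadjusted p = 0.0482). Without IVS replicate 1 the value was -1.41 (adjusted p = 0.109), and without IVS replicate 2 it was -3.70 and passed (adjusted p = 0.000812). Only 0.192% of tested genes had a lower fold change than Fos, although it did not pass.

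Fosl2 (Fra-2), a longer-lived Fos relative, was nearly level, at 13.0 and 14.3 CPM in IVS_diosmin and 16.5 and 13.4 CPM in IVS. Its groups overlapped, and the 95% interval of its log2 fold change of -0.13 ran from -0.66 to 0.39 (edgeR adjusted p = 0.846). Fosb, whose short splice form builds up under repeated stimulation in the brain, had 9 and 9 counts in IVS_diosmin and 14 and 23 in IVS. No difference was detectable at this depth (log2 -0.99, 95% interval -2.70 to 0.73, edgeR adjusted p = 0.592). The summed level of the Fos family was 2.69 and 3.94 RPKM in IVS_diosmin and 25.4 and 6.49 RPKM in IVS. Fos made up 46.2% and 60.0% of that sum in IVS_diosmin and 92.8% and 74.0% in IVS, while Fosl2 made up 49.7% and 37.5% against 6.71% and 21.4%. These shares of Fos and of Fosl2 did not overlap between the groups, while those of Fosb did. In these libraries an exact permutation test of 2 against 2 cannot go below p = 0.333.

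In the Jun family Junb passed and Jun and Jund did not, their 95% intervals overlapped that of Junb, and whether their changes differ was not tested. Junb, an AP-1 subunit that can oppose Jun and that in mouse muscle is known to support fibre size, had the counts 72 and 94 in IVS_diosmin and 517 and 160 in IVS. Its diosmin libraries lay within 1.18 times of each other and its IVS libraries 2.27 times apart, again with IVS replicate 1 the highest. Jun, the partner most often found with Fos, stood at 29.5 and 71.7 CPM in IVS_diosmin and 96.7 and 58.1 CPM in IVS. Its groups overlapped, since IVS_diosmin replicate 2 exceeded IVS replicate 2, and it did not pass (log2 -0.61 ± 0.46, 95% interval -1.77 to 0.54, edgeR adjusted p = 0.595). Jund, the subunit present in most resting cells, stood at 14.5 and 29.2 CPM in IVS_diosmin and 40.7 and 29.3 CPM in IVS. Replicates 2 of the groups were almost equal, at 29.23 and 29.25 CPM, and the log2 fold change was -0.68 ± 0.32 (95% interval -1.40 to 0.04, edgeR adjusted p = 0.328). Without IVS_diosmin replicate 2 the Jund value was -1.29 and just passed (adjusted p = 0.0467). Junb made up 11.9% and 6.62% of the summed RPKM of the Jun family in IVS_diosmin, against 19.0% and 13.6% in IVS.

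The reads were not described as keeping strand. It is therefore not known whether reads of a gene and of a partner on the opposite strand were told apart, or how reads over shared bases were counted. Jund shared 877 of its 1668 exon bases with Gm11175 on the other strand. Gm11175 had 135 and 258 counts in IVS_diosmin and 499 and 204 in IVS, a pattern like that of Jund. The levels of both are uncertain, and so are the rank of Jund and the Jun family sums, shares and ratios that include it. Jun shared 232 bases with Junos, and Junb 173 bases with Prdx2, a peroxiredoxin gene. Junos stood at 7.02 and 7.22 CPM in IVS_diosmin and 7.78 and 3.90 CPM in IVS, and Prdx2 at 41.9 and 40.1 CPM against 44.3 and 54.3 CPM. Neither passed the test (edgeR adjusted p = 0.788 for Junos and 0.581 for Prdx2).

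**Figure D2:**
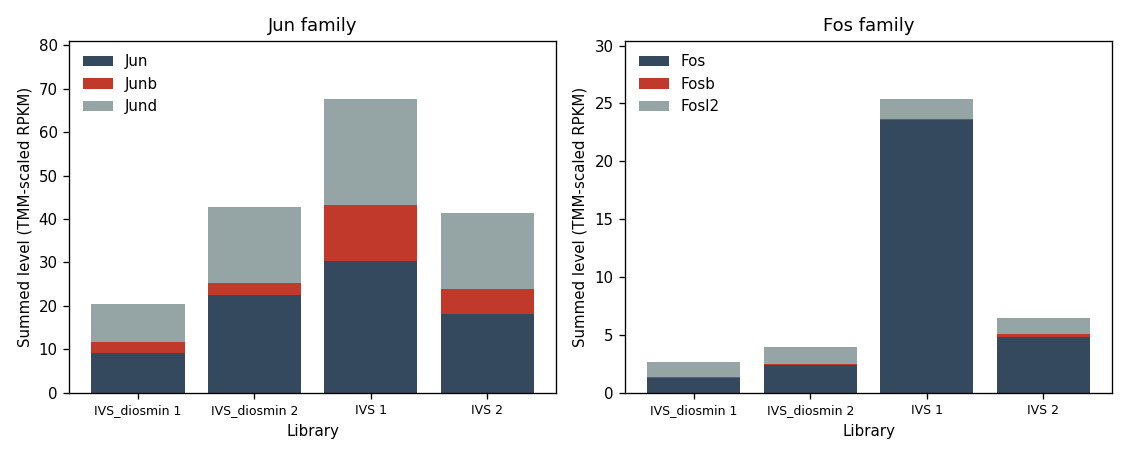
Summed level per length (TMM-scaled RPKM) of the Jun genes and of the Fos genes in each library, with the height of each colour giving the gene's part. IVS replicate 1 has the highest sum in both families (67.6 RPKM for Jun genes, 25.4 RPKM for Fos genes) and IVS_diosmin replicate 1 the lowest (20.3 and 2.69 RPKM), and Fos takes a smaller part of its family in both diosmin libraries.

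Jun family RNA exceeded Fos family RNA in every library, by 7.55 and 10.9 times in IVS_diosmin and by 2.66 and 6.38 times in IVS, in RPKM. The sum over all 10 genes was 64.5 and 103 RPKM in IVS_diosmin and 140 and 116 RPKM in IVS. Nr4a1 alone contributed more than any other gene to each of these sums.

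Egr1, a zinc finger factor that relays growth and stretch signals, had 23 and 37 counts in IVS_diosmin and 100 and 48 in IVS. Its levels of 1.77 and 2.57 CPM in IVS_diosmin lay below the 5.72 and 3.90 CPM in IVS. The log2 fold change of -1.15 ± 0.43 had a 95% interval of -2.09 to -0.21, but did not pass once adjusted over all genes (edgeR adjusted p = 0.192). Nr4a1 (Nur77), which in muscle is known to promote genes of glucose and glycogen use, stood at 133 and 187 CPM in IVS_diosmin and 149 and 210 CPM in IVS. The groups overlapped, and with 1722 to 2691 counts per library it had the narrowest interval of the 10 genes, a log2 fold change of -0.17 with a 95% interval of -0.69 to 0.35 (edgeR adjusted p = 0.796). Its relatives, chosen after their values were seen, did not pass either. Nr4a2 was at 4.16 and 5.55 CPM in IVS_diosmin and 9.72 and 5.53 CPM in IVS (edgeR adjusted p = 0.411), and Nr4a3 at 2.24 and 5.00 CPM against 7.66 and 7.64 CPM (edgeR adjusted p = 0.189).

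Maff, which lacks an activation domain and acts through its partners, stood at 2.78 and 2.15 CPM in IVS_diosmin and 4.23 and 6.42 CPM in IVS. The groups did not overlap, and the log2 fold change of -1.10 ± 0.42 (95% interval -2.01 to -0.20) did not pass (edgeR adjusted p = 0.192). Atf3, a stress factor that can repress as well as activate, stood at 4.63 and 3.05 CPM in IVS_diosmin and 2.74 and 10.7 CPM in IVS. Its IVS libraries were 3.91 times apart and enclosed both diosmin libraries. The log2 fold change was -0.79 ± 0.59 (95% interval -2.12 to 0.54, edgeR adjusted p = 0.568), and it was 0.47 without IVS replicate 2. By unadjusted p under 0.05, 4 of the 10 genes were lower (Fos, Junb, Egr1 and Maff), as were 8.91% of all tested genes.

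**Figure D3:**
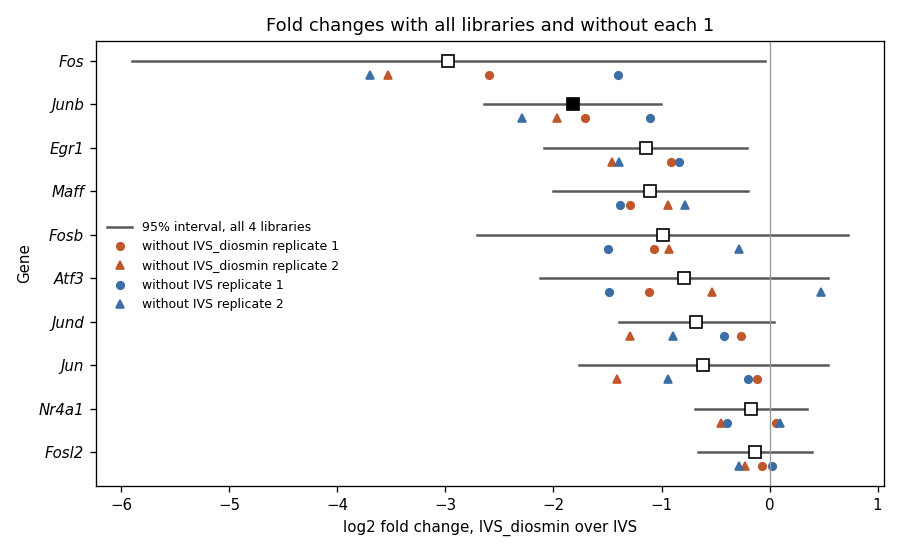
log2 fold change of IVS_diosmin over IVS for each gene with all 4 libraries (squares, filled for adjusted p under 0.05, with the 95% interval) and without each library in turn (coloured symbols below each square). Junb alone is filled. The value of Fos runs from -3.70 to -1.41 as 1 library is left out, and those of Atf3, Nr4a1 and Fosl2 cross 0.

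The replicates of a group did not rank the genes alike. In IVS, replicate 1 was the higher for 6 genes (Fos, Fosl2, Jun, Junb, Jund and Egr1) and replicate 2 for 4 (Fosb, Atf3, Nr4a1 and Maff). In IVS_diosmin, replicate 1 was the higher for 3 genes (Fosb, Atf3 and Maff) and replicate 2 for the other 7. Thus Fos, the 3 Jun genes, Fosl2 and Egr1 went together within each group, and Fosb, Atf3 and Maff went together against them. Around each gene's own mean, Fos was 2.43 log2 units up in IVS replicate 1 and Atf3 0.70 down in the same library, while in IVS replicate 2 Atf3 was 1.22 up and Fos 0.16 up. IVS_diosmin replicate 1 was the lowest library for 7 of the 10 genes, at -0.99 for Jun and -0.87 for Jund, where replicate 2 stood at 0.29 and 0.13. With 2 libraries a group, these orders are a description of these libraries.

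**Figure D4:**
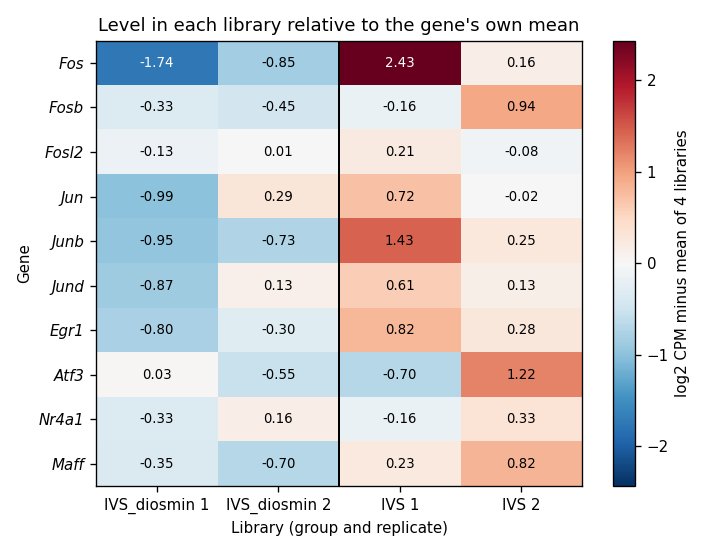
Level of each gene in each library as log2 CPM minus the gene's mean over the 4 libraries (red above, blue below the mean), with the diosmin libraries left of the line. Fos, Junb and Egr1 are highest in IVS replicate 1 (2.43, 1.43 and 0.82), while Fosb, Atf3 and Maff are highest in IVS replicate 2 (0.94, 1.22 and 0.82).

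Of the other genes, those whose levels over the 4 libraries lay nearest to the mean profile of the 10 factors were Ptpn2, a tyrosine phosphatase, Psmb4, a proteasome subunit, Phlpp1, a phosphatase of Akt, Sfpq, a nuclear RNA-binding protein, and A630019I02Rik. Their distances were 0.07 to 0.12 log2 units over 4 libraries, and those of the 10 factors from their own mean ran from 0.33 for Egr1 to 2.27 for Fos. Psmb4, for example, stood at 33.7 and 45.1 CPM in IVS_diosmin and 74.3 and 68.1 CPM in IVS (log2 -0.85, edgeR adjusted p = 0.0533). None of these 5 passed the test. They were picked for the smallest distances among all tested genes, so their lying closer to the mean than the factors follows from that choice.

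Of 22 tested early transcription factors beyond the 10, 4 fell and none rose, beside 1.78% of all tested genes lower and 1.17% higher, and the median log2 fold change was -0.67, beside 0.01 over all tested genes. They were Klf2, a flow-sensing factor of endothelium, at 34.8 and 36.4 CPM in IVS_diosmin and 76.4 and 104 CPM in IVS (log2 -1.34 ± 0.22, edgeR adjusted p = 0.00766), Klf6, a zinc finger factor of injury responses (log2 -1.27), Klf4, a factor of endothelium and other barrier cells (log2 -1.86), and Ier2, an early response regulator (log2 -1.63). Endothelial markers summed to 365 and 345 CPM in IVS_diosmin and 624 and 672 CPM in IVS, and their part in these falls was not tested. Of 18 tested feedback phosphatase and mRNA decay genes 4 fell and none rose, again beside 1.78% of all tested genes lower, with a median of -0.41. Dusp1, which switches off the MAP kinases that act on Jun and Egr1, stood at 60.8 and 59.1 CPM in IVS_diosmin and 174 and 128 CPM in IVS (log2 -1.33 ± 0.22, edgeR adjusted p = 0.00776). Zfp36, which binds AU-rich RNAs such as that of Fos and speeds their decay, stood at 15.2 and 12.8 CPM in IVS_diosmin and 31.6 and 63.7 CPM in IVS (log2 -1.77). Dusp6, a phosphatase of ERK, stood at 4.39 and 4.79 CPM in IVS_diosmin and 12.8 and 13.2 CPM in IVS (log2 -1.50), and Gadd45g, a stress gene, had a log2 fold change of -0.84. Whether these lists differ from the upstream lists was not tested. By unadjusted edgeR p under 0.05 the early factor list had 7 genes lower and 1 higher. The feedback list had 6 lower and 0 higher by that rule, beside 8.91% of all tested genes lower. The share of all tested genes higher was not counted. Because the lists were chosen with earlier results of these data known, the shares beside them are a description and no test.

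Among 25 tested MAP kinase cascade genes none passed, with a median of 0.24. Map2k3, a kinase of p38, had the smallest p there and was the higher with diosmin, at 158 and 154 CPM against 98.5 and 98.3 CPM in IVS (log2 0.66, edgeR adjusted p = 0.0969). By DESeq2 Map2k3 alone of that list passed, beside 260 genes higher and 337 lower over all genes. By unadjusted edgeR p under 0.05 the list had 3 genes higher and 1 lower. Of all tested genes 8.91% were lower by that unadjusted rule, and the share higher was not counted. None of 20 genes of serum response factor, its TCF partners and CREB passed (median 0.06), with Elk3, a TCF factor, at 5.71 and 7.01 CPM in IVS_diosmin and 15.6 and 9.67 CPM in IVS (edgeR adjusted p = 0.122). None of 17 other AP-1 and small Maf relatives passed (median 0.10), with Mafk at 12.1 and 12.6 CPM in IVS_diosmin and 16.0 and 19.3 CPM in IVS (edgeR adjusted p = 0.303). By unadjusted edgeR p under 0.05 there were 3 lower and 1 higher in the list of serum response factor and 0 in that of the relatives. These stand beside the same 8.91% lower, and 0 passed in either list by DESeq2. Fosl1 (Fra-1), the remaining Fos family gene, had 5 and 1 counts in IVS_diosmin and 8 and 12 in IVS and was too low to test. Of 20 tested genes described elsewhere as targets of AP-1 or Egr1, 1 fell: Pdgfb, a growth factor made by endothelium that recruits pericytes, at 19.5 and 21.0 CPM in IVS_diosmin and 35.9 and 38.2 CPM in IVS (log2 -0.87, edgeR adjusted p = 0.0413). That 1 in 20 stands beside 1.78% of all tested genes lower, and the median of the list was -0.21. By unadjusted edgeR p under 0.05 the list had 7 genes lower, beside 8.91% of all tested genes, and 2 higher.

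Of these 9 genes of the lists that fell, Dusp1 passed in 3 of the 4 fits that left out 1 library, Klf2, Klf6, Ier2 and Dusp6 in 2, Klf4 and Zfp36 in 1 and Gadd45g and Pdgfb in 0. None of the 9 kept its call without IVS_diosmin replicate 1, a fit in which far fewer of all tested genes passed too. The log2 fold changes there were -1.35 for Dusp1 and -1.31 for Klf2, beside -1.33 and -1.34 with all libraries. Without IVS replicate 2, only Dusp1 kept its call (log2 -1.54), again with far fewer calls over all tested genes.

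**Figure D5:**
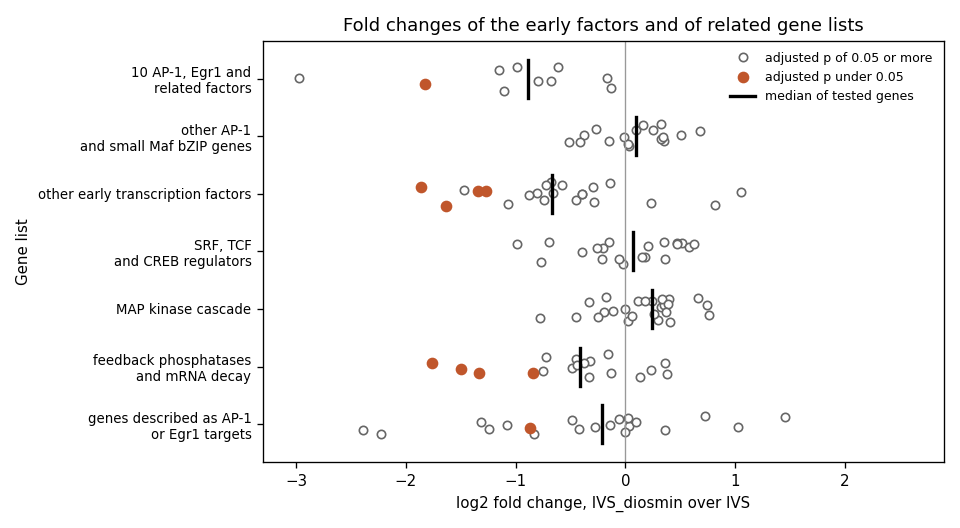
log2 fold change of IVS_diosmin over IVS for each tested gene of the 10 factors and of 6 related lists, with filled points at adjusted p under 0.05 and bars at the median. The factors, the other early transcription factors and the feedback genes have medians of -0.89, -0.67 and -0.41. The median of the genes described as targets is -0.21, and the medians of the 3 lists of relatives and upstream regulators lie at 0.06 to 0.24.

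Other cell types and RNA signs moved between the same libraries. The libraries held 13056650 to 15324354 gene counts, and 400 of 13533 genes passed (2.96%). By DESeq2 337 genes were lower and 260 higher, where edgeR had 241 and 159. Muscle fibre markers were abundant, at 85807 and 91678 summed CPM in IVS_diosmin and 77030 and 85660 in IVS. Of these 8, 2 rose (Des, log2 0.88, and Mb, log2 1.16), as also by DESeq2 (2), beside 1.17% of all tested genes higher by edgeR. By unadjusted edgeR p under 0.05, 5 were higher, and the share of all tested genes higher by that rule was not counted. All 8 neutrophil markers were at 0 in every library. Of 12 endothelial markers 6 fell and none rose (6 lower by DESeq2), beside 1.78% of all tested genes lower by edgeR. By unadjusted edgeR p under 0.05, 10 of them were lower, beside 8.91% of all tested genes. Of 4 tested adipocyte markers 1 fell, Fabp4, which endothelium also expresses, and 2 were lower by DESeq2 and 2 by unadjusted edgeR p under 0.05. Adipocyte sums were 221 and 193 CPM in IVS_diosmin and 423 and 534 CPM in IVS. Of 7 slow fibre markers 6 rose, with sums of 3512 and 1360 CPM in IVS_diosmin and 61.3 and 72.9 CPM in IVS. Of 8 tested macrophage markers none passed (0 by DESeq2 and 0 by unadjusted edgeR p under 0.05), with sums of 24.6 and 40.3 CPM in IVS_diosmin and 21.4 and 47.0 CPM in IVS. No satellite cell, fibroblast or smooth muscle marker passed by edgeR or DESeq2, and 2 smooth muscle markers were higher by unadjusted edgeR p under 0.05. The rRNA gene CT010467.1 fell to 12394 and 9447 CPM in IVS_diosmin, against 36309 and 40325 CPM in IVS (edgeR adjusted p = 0.00269), and Rn7sk, a small nuclear RNA, to 11.9 and 5.97 CPM against 34.6 and 33.5 CPM (edgeR adjusted p = 0.0063). Neat1, a nuclear noncoding RNA of the same list, leaned the other way, at 4971 and 3210 CPM in IVS_diosmin and 2583 and 2299 CPM in IVS (log2 0.74, edgeR adjusted p = 0.124), and passed as higher by DESeq2. The part of these differences in the levels of Junb and the other early genes was not tested, and in whole muscle fewer cells of a type and less RNA per cell cannot be told apart.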

How the data were processed

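The authors deposited raw counts of reads per gene, 1 file for each library. HISAT2 2.1.0, HTSeq and mm10 are named per the submitters' processing notes; the annotation release and strand setting are not given in the sources used here. Per the labels' protocols, libraries were made from Trizol RNA with poly-T beads and a NEBNext Ultra kit. The 5 HTSeq summary lines, 72.35% to 75.11% of the reads, stayed out. Reads aligned to more than 1 place were 37.7% to 45.6%. Symbols, positions and exon lengths came from GENCODE M21 (55141 identifiers matched without version).

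The test was that of edgeR 4.0.16 (R 4.3.3): filterByExpr (13533 genes), TMM, robust quasi-likelihood test of IVS_diosmin minus IVS, 2-sided, Benjamini-Hochberg over all genes, threshold 0.05. The standard error is the fold change over the square root of F. Log2 profiles used a prior count of 2. Alternatives were RLE and upper-quartile scaling, no filter, DESeq2 1.42.0, a replicate block, no rRNA-like and noncoding genes, and leaving out each library. The labels do not say that replicates came from separate animals, so p-values measure only the spread of these samples, and that may be technical. Replicates differed beyond counting noise (chi-square over its degrees of freedom 28.6 in IVS, 19.7 in IVS_diosmin).

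The 10 genes and the lists were chosen with earlier results of these data known. Genes named were the 10 factors, at most 4 past the threshold per list (or the one of smallest p), and the 5 nearest profiles by Euclidean distance. Promoter sequences are RefSeq's (GRCm38.p6).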

Additional observations from a re-analysis of the deposited data

How the results depend on the processing

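Of 100 refitted fold changes of the 10 genes (10 alternatives each), 90 kept their direction and their side of the threshold, among them Fosb under DESeq2, which gave it no adjusted p. All 4 that turned came from leaving out 1 library: Fosl2 was 0.022 without IVS replicate 1 (lowest -0.28 over the left-out libraries), Atf3 0.47 without IVS replicate 2 (lowest -1.49), and Nr4a1 0.093 without IVS replicate 2 and 0.057 without IVS_diosmin replicate 1 (lowest -0.45). Junb ran from -2.29 to -1.11 over the left-out libraries. With the replicate block its value was -1.71 and its call was lost (adjusted p = 0.120), leaving 0 of the 10 genes past the threshold, 1 of the list genes and 93 of all genes. Replicates that share a number did not vary together (correlation of their deviations 0.0115 over 13533 genes), so the number is not known to pair samples. Without a filter on low counts 919 genes passed. Leaving out 1 library gave 38 to 366 genes in all, 0 to 2 of the 10 and 0 to 9 of the list genes. Scaling by RLE or upper quartile, DESeq2 and removal of the noncoding genes kept Junb past the threshold. For the other moved values the cause was not tested. Fosb had 9 to 23 counts per library, the fewest of the 10.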
